A study of Mus musculus with 54 samples.

Results

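Single mouse bone marrow progenitors sorted as CD41-positive were compared with unsorted progenitors of the same sequencing batch (batch SB17 in the authors' design table). The cells were chosen from that table as wells that held 1 cell and gave at least 500 unique molecular identifiers (UMIs, each counting 1 captured RNA molecule once), and they numbered 1036 of 1140 single-cell wells, out of 8399 such cells in the 54 pools of the whole series. The CD41 gate contributed 336 cells in 2 amplification pools, with 167 and 169 cells, and the unsorted group 700 cells in 4 pools, with 185, 177, 168 and 170 cells. The readout was MARS-seq, in which the RNA of each well is tagged near its 3′ end with a well barcode and a UMI and a pool of wells is then amplified together.

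Both groups were wild type C57BL/6 mice aged 6 to 8 weeks, with no treatment, and both were drawn from bone marrow enriched for the receptor cKit. The unsorted group had the surface phenotype Lin- cKit+ Sca1-, which covers the common and granulocyte-monocyte and megakaryocyte-erythroid progenitors together. The CD41 gate had that phenotype and, in addition, CD34+ FcgR(low) CD41+, so it differed from the unsorted group in CD34 and in the Fc gamma receptors as well as in CD41. All CD41 gate cells came from 1 plate with mouse identifier 1 in the authors' table, and the unsorted cells from 2 other plates with mouse identifier 2. The gate, the plate and the mouse identifier therefore cannot be told apart, and every p-value below measures the spread between amplification pools only, of which those of a plate may be technical replicates.

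CD41 is the alpha chain of the platelet fibrinogen receptor, encoded by Itga2b, and it marks megakaryocytes and some of their progenitors. Megakaryocytes are the large marrow cells that shed platelets; they load alpha granules with secreted proteins such as platelet factor 4 and place the GPIb-IX-V complex, the receptor for von Willebrand factor, on their surface. Megakaryocyte and red cell precursors share transcription factors such as GATA1, GATA2 and TAL1, whereas KLF1 is known as an activator of the red cell program and FLI1 of the megakaryocyte program.

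Depth differed between the groups. The pools of the CD41 gate held 374929 and 355389 UMIs and those of the unsorted group between 483017 and 594833, with a median of 1843.5 against 2676 UMIs per cell and 1137 against 1520 genes per cell. Wells without a cell held 39 to 125 UMIs on the CD41 plate, about 4.32% and 4.48% of the median cell in its pools, and 12 to 27 UMIs on the unsorted plates. In those wells Pf4 had 3 and Mpo 2 of 328 UMIs on the CD41 plate, where Elane, Prtn3, Apoe, Car1 and Car2 had 0. On the unsorted plates Mpo had 5, Elane 2 and Prtn3 1 of 151 UMIs, and Pf4, Apoe, Car1 and Car2 had 0. The part of free RNA in the results was not tested. The same 192 well barcodes were used in all 6 pools, which carry 6 distinct pool barcodes. The 2 unsorted plates stood apart from each other, with a chi-square per degree of freedom of 6.99 to 8.66 between pools of different plates against 1.42 to 3.54 between pools of the same plate, and 23.3 to 32.8 between the groups.

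The promoters of genes that were high (Pf4, Itga2b, Gp9 and Treml1) or low (Klf1 and Elane) in the CD41 gate are shown because they carry the main contrast described below. Each is the RefSeq window of 250 bases before to 50 bases after the gene's start, build GRCm38.p6, 5′ to 3′ on the gene's strand, with capitals marking the motif of GATA factors (AGATAA), that of ETS factors (AGGAAG) and that of RUNX factors (TGTGGT) on either strand.
Pf4, chr5:90772185-90772484, plus strand: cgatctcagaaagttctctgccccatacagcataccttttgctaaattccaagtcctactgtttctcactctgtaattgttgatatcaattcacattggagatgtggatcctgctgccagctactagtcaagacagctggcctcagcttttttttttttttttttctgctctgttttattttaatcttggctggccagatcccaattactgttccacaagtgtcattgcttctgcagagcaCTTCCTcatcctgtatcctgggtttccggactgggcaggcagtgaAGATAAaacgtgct
Itga2b, chr11:102469834-102470133, minus strand: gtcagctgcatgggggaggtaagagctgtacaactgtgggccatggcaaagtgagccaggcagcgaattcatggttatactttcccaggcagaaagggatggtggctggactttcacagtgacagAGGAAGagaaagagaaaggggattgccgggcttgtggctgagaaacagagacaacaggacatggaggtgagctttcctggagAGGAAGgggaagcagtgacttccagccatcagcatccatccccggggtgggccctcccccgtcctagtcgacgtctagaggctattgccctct
Gp9, chr6:87777820-87778119, plus strand: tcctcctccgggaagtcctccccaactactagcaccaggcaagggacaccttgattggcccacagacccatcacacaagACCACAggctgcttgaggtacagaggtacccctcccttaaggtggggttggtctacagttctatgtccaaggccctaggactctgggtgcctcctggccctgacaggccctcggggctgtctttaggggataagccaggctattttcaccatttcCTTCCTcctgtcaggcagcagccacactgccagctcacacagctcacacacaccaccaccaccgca
Treml1, chr17:48359666-48359965, plus strand: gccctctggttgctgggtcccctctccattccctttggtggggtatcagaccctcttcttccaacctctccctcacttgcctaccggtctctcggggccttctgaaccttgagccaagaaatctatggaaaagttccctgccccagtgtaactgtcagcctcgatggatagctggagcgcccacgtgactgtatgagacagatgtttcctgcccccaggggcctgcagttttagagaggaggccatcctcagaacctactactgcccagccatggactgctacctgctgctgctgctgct
Klf1, chr8:84901732-84902031, plus strand: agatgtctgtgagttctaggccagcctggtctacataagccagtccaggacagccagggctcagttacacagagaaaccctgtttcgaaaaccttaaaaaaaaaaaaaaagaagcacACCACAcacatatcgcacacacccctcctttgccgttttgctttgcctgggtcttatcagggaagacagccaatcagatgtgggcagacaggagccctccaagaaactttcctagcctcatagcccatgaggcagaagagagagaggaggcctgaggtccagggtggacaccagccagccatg
Elane, chr10:79886062-79886361, plus strand: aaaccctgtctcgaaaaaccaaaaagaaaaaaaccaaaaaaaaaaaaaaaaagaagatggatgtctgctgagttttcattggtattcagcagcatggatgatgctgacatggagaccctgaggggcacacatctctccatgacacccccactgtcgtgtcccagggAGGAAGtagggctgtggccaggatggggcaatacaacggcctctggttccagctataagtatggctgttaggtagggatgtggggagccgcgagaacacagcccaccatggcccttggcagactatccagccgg
The Pf4 window held 1 GATA and 1 ETS match, that of Itga2b held 2 ETS matches, that of Gp9 held 1 ETS and 1 RUNX match, that of Klf1 held 1 RUNX match and that of Elane held 1 ETS match. The Treml1 window held none of these motifs. Among all 27025 genes with a window of this length, 11.4% held the GATA motif, 35.2% the ETS motif and 16.9% the RUNX motif; among the 4346 tested genes with a window the shares were 5.84%, 33.6% and 12.2%. Of the 38 genes of the 3 platelet lists used below that had a window, 8 held the GATA motif, 21 the ETS motif and 6 the RUNX motif. Of the 7 windows matched among the 12 largest rises, 3 held the GATA motif, 5 the ETS motif and 2 the RUNX motif. Of the 11 windows matched among the 12 largest falls, 0 held the GATA motif, 5 the ETS motif and 1 the RUNX motif. These matches describe letters in a window and not bound sites.

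The sort marker genes were read first as a check of the labels, without a test, since they defined the gate. Itga2b, which shares its row with its older name GPalpha IIb, stood at 1653 and 1715 CPM (UMIs per 1000000 UMIs of the pool, scaled by TMM) in the CD41 gate pools and at 46.8, 35.1, 23.1 and 17.0 CPM in the 4 unsorted pools. Fcgr3, which encodes an Fc gamma receptor, was at 2.83 and 8.95 CPM in the CD41 gate and between 112 and 246 CPM in the unsorted pools. Cd34 was at 67.9 and 77.5 CPM in the CD41 gate and at 109, 91.8, 107 and 184 CPM in the unsorted pools, so its RNA was lower in the gate that selected CD34-positive cells. Kit, in a row joined with a cDNA name, was at 59.4 and 68.6 CPM against 99.7 to 142 CPM. Ly6a, which encodes Sca1, had 0 UMIs in the CD41 gate and 7 in the unsorted pools.

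Over all genes, the comparison asked which RNAs distinguish the CD41-positive progenitors from the mixed progenitor pool. Of 6905 genes tested with edgeR's quasi-likelihood test, 1272 were higher in the CD41 gate and 1554 lower at a Benjamini-Hochberg adjusted p under 0.05. These are 18.4% called higher and 22.5% called lower, the background against which each list is read, and the median log2 fold change of all genes tested was -0.04. At least 2-fold changes made up 697 of the genes called higher and 1260 of those called lower. The calls rest on both CD41 gate pools: without the first, 735 genes were called higher and 950 lower, and without the second, 671 and 772. In both of those fits all 2812 of the called genes that could be tested kept their direction. That outcome was nearly fixed in advance, since the pools of the groups did not overlap in 2801 of the 2826 called genes.

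Of the 12 largest rises, 6 were genes of the platelet lists: Pf4, Treml1, Tbxa2r, Tbxas1, Vwf and Gng11. Pf4, the chemokine platelet factor 4 of the alpha granule, was at 8880 and 9593 CPM in the CD41 gate and at 114, 41.7, 25.2 and 38.2 CPM in the unsorted pools. Its log2 fold change was 7.35 ± 0.33 (SE, n = 2 and 4 pools; edgeR adjusted p = 9.69e-09), a 163-fold difference. The lowest CD41 gate pool lay far above the highest unsorted pool, and 12 unsorted pools of other sequencing batches lay between 4.10 and 121 CPM. Vwf, which encodes von Willebrand factor, was at 665 and 695 CPM against 8.39 to 23.3 CPM, a log2 fold change of 5.48 ± 0.22 (edgeR adjusted p = 3.42e-09). Treml1, a receptor stored in platelet alpha granules, was at 391 and 286 CPM against 1.67, 8.35, 6.29 and 0 CPM, a log2 fold change of 6.25 ± 0.38 (edgeR adjusted p = 1.61e-07). The other genes among the 12 largest rises with at least 100 CPM were the phosphodiesterase Pde10a, the G protein subunits Gnaz and Gng11, the thromboxane receptor Tbxa2r, the thromboxane synthase Tbxas1, the caveolar protein gene Sdpr, the adhesion molecule Esam, Exoc3l2 and Mrvi1. Their log2 fold changes lay between 5.01 (Mrvi1) and 7.65 (Pde10a). Pde10a and Gnaz had 1 UMI each in the unsorted pools, against 101 and 82 in the CD41 gate, which puts the ratio of their summed levels at 299 (95% counting interval 52.5 to 11929) and 243 (42.4 to 9707).

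**Figure D1:**
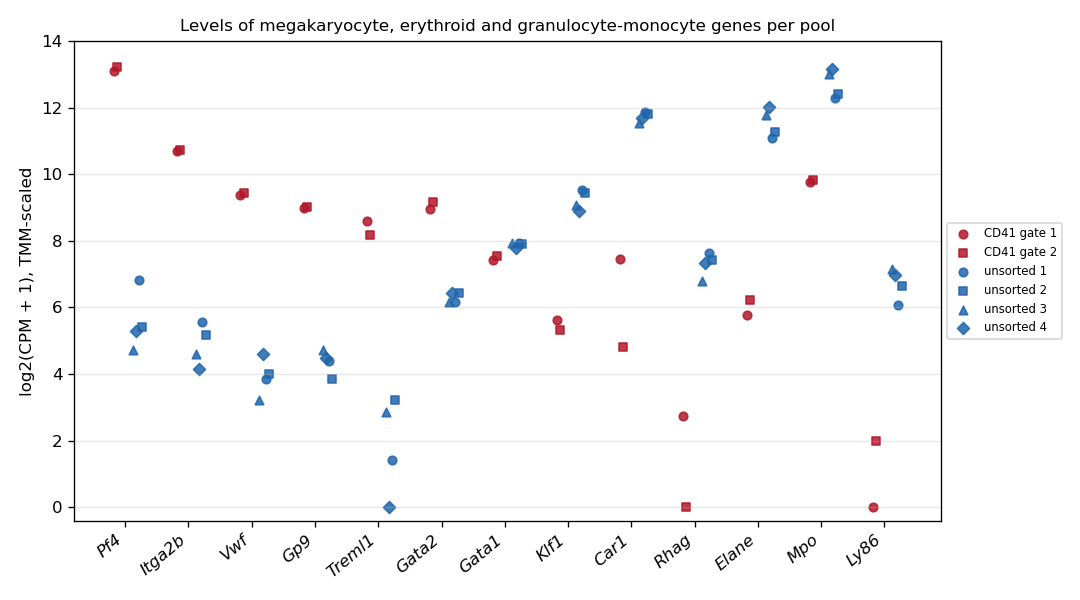
Level of 13 genes in each pool as log2(CPM + 1) with TMM scaling; red symbols are the 2 CD41 gate pools and blue symbols the 4 unsorted pools. Pf4, Itga2b, Vwf, Gp9, Treml1 and Gata2 sit higher in both CD41 gate pools than in any unsorted pool, Gata1 differs by under 1 unit between the groups, and Klf1, Car1, Rhag, Elane, Mpo and Ly86 sit lower.

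Among platelet surface glycoproteins and adhesion receptors, 10 of the 11 genes tested were called higher and 0 lower, with a median log2 fold change of 4.70 against -0.04 for all genes; 15 were listed, and 4 had too few UMIs to test. In this and the next lists a gene low in the unsorted pools could pass the count filter through the CD41 gate alone, so the counts describe the genes tested and not the whole list. The GPIb-IX-V complex was measured through all its genes. Gp9 was at 510 and 522 CPM in the CD41 gate and at 20.0, 13.4, 25.2 and 21.2 CPM in the unsorted pools (log2 fold change 4.70 ± 0.20, edgeR adjusted p = 7.19e-09). Gp5 had a log2 fold change of 4.50 ± 0.22 and Gp1ba of 4.50 ± 0.39. Gp1bb shares its row with the neighbouring septin gene Sept5, so its UMIs cannot be assigned between them; that row was at 804 and 1011 CPM against 4.24 to 16.8 CPM. Itgb3, which encodes the beta chain that pairs with CD41, rose by 4.79 ± 0.26 on the log2 scale, and the tetraspanin gene Cd9 by 4.85 ± 0.23. Clec1b, the podoplanin receptor CLEC-2, had 31 UMIs in the CD41 gate and 1 in the unsorted pools. Pecam1 and the tetraspanin gene Cd151 had the smallest called differences, 0.91 and 1.56. Neither call held in DESeq2 (adjusted p 0.063 and 0.062) or without the first CD41 gate pool (edgeR adjusted p 0.11 and 0.064). The collagen receptor gene Gp6 had 0 UMIs in both groups.

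Of the alpha granule and secreted proteins, 9 of 15 listed genes were tested, 8 were called higher and 1 lower, with a median log2 fold change of 4.24. Besides Pf4 and Vwf, the protease inhibitor gene Serpine2 was at 640 and 573 CPM against 21.7 to 44.1 CPM (log2 fold change 4.24 ± 0.21, edgeR adjusted p = 1.66e-08). The clusterin gene Clu rose by 4.62 ± 0.38, the P-selectin gene Selp by 4.38 ± 0.41 and the coagulation factor V gene F5 by 3.88 ± 0.62 on the log2 scale. Tgfb1 was already abundant in the unsorted pools, at 367 to 412 CPM, and reached 1231 and 1506 CPM in the CD41 gate. F13a1, the A chain of coagulation factor XIII, went the other way, with 3 UMIs in the CD41 gate and 203 in the unsorted pools, 22.8-fold lower in summed level (95% counting interval 7.71 to 112). F13a1 is also known as a gene of monocytes. Of other platelet products, Ppbp had 2 UMIs in the CD41 gate and 0 in the unsorted pools. Thbs1 had 9 UMIs in the CD41 gate, in both pools, and 0 in the unsorted pools, at least 8.88-fold higher when the unsorted sum is set to 3 UMIs, and was not tested.

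All 15 tested genes of the 22 listed under platelet receptors and signalling were called higher, with a median log2 fold change of 3.61. The thrombin receptor genes F2r and F2rl3 rose by 3.61 ± 0.24 and 3.22 ± 0.36 on the log2 scale. P2rx1, the ATP-gated channel of platelets, rose by 3.87 ± 0.26, and Rab27b, which acts in granule secretion, by 4.02 ± 0.45. Lat, an adaptor in collagen receptor signalling, was at 328 and 319 CPM against 4.24 to 16.8 CPM (log2 fold change 4.88 ± 0.32, edgeR adjusted p = 2.58e-07). Gucy1b3, a subunit of the nitric oxide receptor, had 49 UMIs in the CD41 gate and 0 in the unsorted pools, at least 48.4-fold higher when the unsorted sum is set to 3 UMIs. The smallest differences in this list were those of Fyb (1.03 ± 0.18), Rgs10 (1.18 ± 0.15) and Fermt3 (1.21 ± 0.27), genes also expressed in the unsorted pools at 40.3 CPM or more. Fyb and Fermt3 were not called when each cell was first thinned to 500 UMIs (edgeR adjusted p = 0.14 and 0.41).

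The cytoskeleton list was mixed, with 6 of 11 tested genes called higher and 1 lower and a median of 1.15. Tuba8, an alpha tubulin, was at 739 and 835 CPM against 25.1 to 38.2 CPM (log2 fold change 4.61 ± 0.18, edgeR adjusted p = 3.42e-09), and the focal adhesion gene Zyx at 1291 and 1074 CPM against 121 to 149 CPM. Myh9, the non-muscle myosin heavy chain, fell from between 118 and 192 CPM to 28.3 and 20.9 CPM. Tubb1 and Myl9, a beta tubulin and a myosin light chain of mature megakaryocytes and platelets, had 0 UMIs in both groups.

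**Figure D2:**
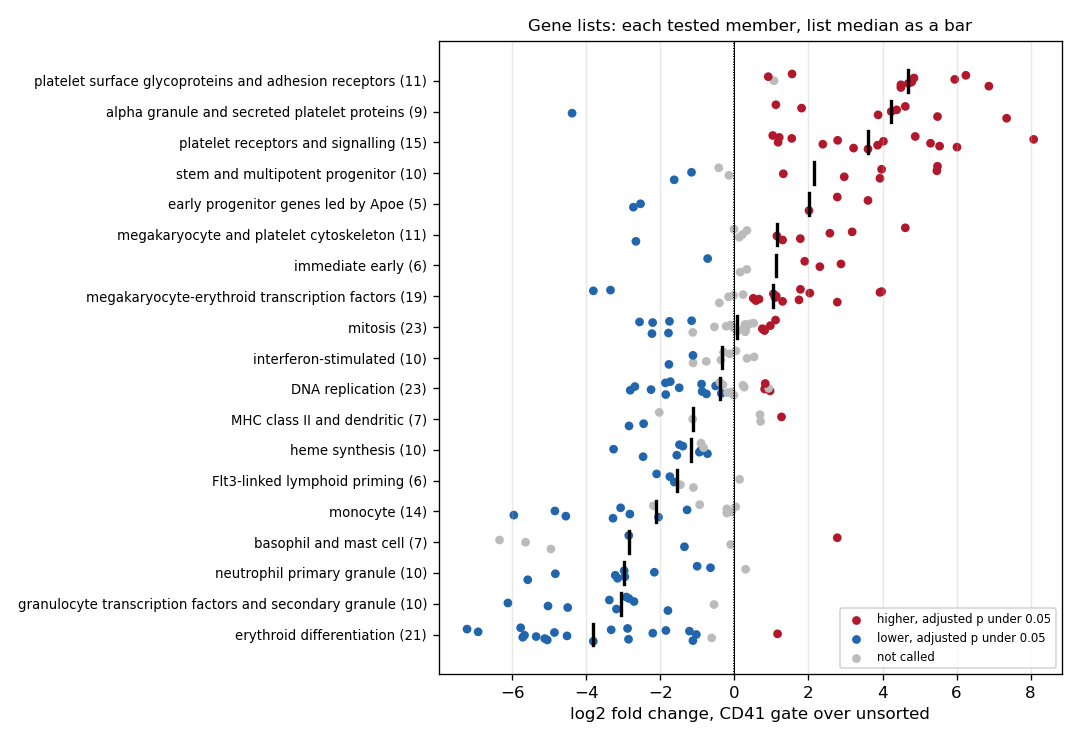
Log2 fold change of every tested member of the 19 gene lists with at least 5 tested members; each dot is a gene, the black bar the list's median, the dotted line the median of all genes tested, and the number in brackets the members tested. The 3 platelet lists have medians of 3.61 to 4.70, and the erythroid differentiation list lies at the other end at -3.81; values of genes with 0 UMIs in a group depend on the prior count of the fit.

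Among 19 tested transcription factors shared by the megakaryocyte and erythroid lineages, 13 were called higher and 2 lower, with a median log2 fold change of 1.05. The homeobox gene Meis1 was at 190 and 173 CPM against 8.35 to 15.0 CPM (log2 fold change 3.93 ± 0.29, edgeR adjusted p = 7.14e-07). Gata2 was at 501 and 570 CPM in the CD41 gate and at 70.2, 85.1, 71.3 and 84.8 CPM in the unsorted pools, a log2 fold change of 2.78 ± 0.16 (edgeR adjusted p = 9.03e-08). Nfe2, known for its part in platelet release, rose by 1.74 ± 0.16, and Fli1 by 1.30 ± 0.26. Runx1, Lmo2 and Etv6 rose by 1.10 ± 0.17, 1.13 ± 0.14 and 1.05 ± 0.15. Gata1 was at 170 and 188 CPM against 221 to 245 CPM, with no overlap between the groups, and its log2 difference of -0.41 ± 0.16 was not called (edgeR adjusted p = 0.0593). It was called lower with all 16 unsorted pools (0.021), without the plate of unsorted pools 3 and 4 (0.022), without unsorted pool 4 (0.040) and, at -0.68, with the GC and length offset (0.0049). Klf1 fell from between 473 and 743 CPM to 48.1 and 38.8 CPM (log2 fold change -3.81 ± 0.27, edgeR adjusted p = 5.44e-07), a 14.1-fold difference. Nfia, known as a factor of early red cell precursors, was at 2.83 and 8.95 CPM against 40.3 to 86.9 CPM. The small rises of Zfpm1, Tal1 and Gfi1b (0.58, 0.66 and 0.51) were not called when either CD41 gate pool was left out, with edgeR adjusted p between 0.073 and 0.20. With cells thinned to 500 UMIs Runx1 and Etv6 were not called (0.13 and 0.57).

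**Figure D3:**
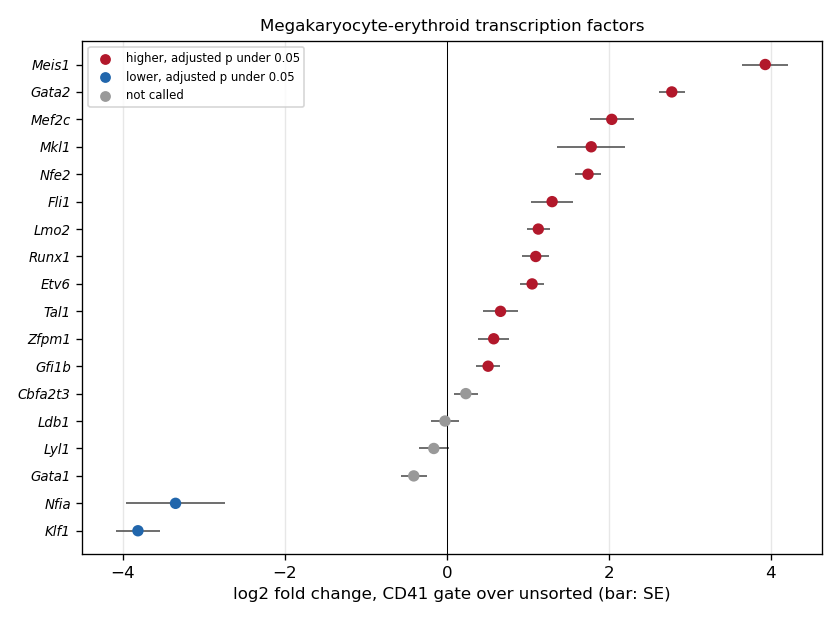
Log2 fold change, CD41 gate over unsorted, of tested megakaryocyte-erythroid transcription factors, with bars of 1 standard error; red and blue mark genes called higher and lower. Meis1 and Gata2 lie farthest to the right of those drawn, Gata1 is just left of 0, and Klf1 and Nfia are at -3.81 and -3.35.

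Genes of red cell differentiation were low in the CD41 gate. Of 21 tested, 19 were called lower and 1 higher, with a median log2 fold change of -3.81, or -3.33 with the gene at 0 UMIs set to its bound. Car1, the carbonic anhydrase of early erythroid cells, was at 176 and 26.8 CPM in the CD41 gate and at 3777, 3605, 2992 and 3278 CPM in the unsorted pools (log2 fold change -5.06 ± 0.42, edgeR adjusted p = 2.09e-06). The CD41 gate pools differed from each other in Car1, yet both lay far below every unsorted pool. Car2 had a smaller log2 fold change, -2.86 ± 0.23. The blood group gene Ermap fell from between 329 and 599 CPM to 14.2 and 2.98 CPM. Rhag, of the Rh complex, had 2 UMIs in the CD41 gate and 350 in the unsorted pools, 59.1-fold lower in summed level (95% counting interval 16.2 to 490), and the membrane skeleton gene Add2 had 2 and 379 UMIs. The tight junction gene Cldn13 had 1 and 554 UMIs, 187-fold lower (33.4 to 7402). The erythropoietin receptor gene Epor fell by 1.12 ± 0.29, a call that was lost without either CD41 gate pool (edgeR adjusted p = 0.073 in both fits). Icam4, the Landsteiner-Wiener blood group adhesion molecule, was the list's exception, at 116 and 131 CPM against 46.7 to 72.1 CPM.

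Heme synthesis genes moved in the same direction as the red cell genes, with 8 of 10 tested called lower, 0 higher and a median of -1.17. Cpox had a log2 fold change of -3.27 ± 0.25 and Alas1, the housekeeping form of the pathway's first enzyme, of -2.47 ± 0.20. Without the first CD41 gate pool 5 of 11 heme genes were called lower. The globin genes Hba-a2 and Hbb-b1 were low in both groups, at 11.3 and 50.7 against 105 to 223 CPM and at 19.8 and 8.95 against 27.3 to 85.2 CPM. Both globins were called lower, and Hbb-b1 lost its call without the second CD41 gate pool (edgeR adjusted p = 0.12).

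Granulocyte and monocyte genes were also low in the CD41 gate. Of the primary granule genes of neutrophils 9 of 10 tested were called lower and 0 higher, with a median log2 fold change of -2.97. Elane, neutrophil elastase, was at 53.8 and 74.5 CPM in the CD41 gate and at 2198, 2453, 3554 and 4137 CPM in the unsorted pools (log2 fold change -5.58 ± 0.33, edgeR adjusted p = 1.20e-07). Mpo, myeloperoxidase, fell less and was still at 880 and 909 CPM, against 4995 to 9111 CPM (log2 fold change -2.96 ± 0.25, edgeR adjusted p = 2.44e-06). Prtn3 and Ctsg, the other serine proteases of these granules, had log2 fold changes of -3.16 ± 0.22 and -3.22 ± 0.24. The unsorted plates differed in these genes, the plate of unsorted pools 3 and 4 having the higher levels of Elane, Mpo, Prtn3 and Ctsg.

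Of the transcription factors and secondary granule genes of granulocytes 9 of 10 tested were called lower, with a median of -3.06, or -2.89 with the gene at 0 UMIs set to its bound. Cebpe, a factor of granulocyte maturation, had 4 UMIs in the CD41 gate and 116 in the unsorted pools, and Gfi1 had 1 and 82. Hp, haptoglobin, fell from between 209 and 371 CPM to 0 and 17.9 CPM. Cebpa fell by 1.80 ± 0.38, a call that was lost without the second CD41 gate pool (edgeR adjusted p = 0.056).

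Of the monocyte genes 8 of 14 tested were called lower and 0 higher, with a median of -2.12; without the first CD41 gate pool 5 were called. Irf8, a factor of monocytes and dendritic cells, was at 14.2 and 29.8 CPM against 177 to 254 CPM (log2 fold change -3.28 ± 0.31, edgeR adjusted p = 6.40e-06). Ly6c2 fell from between 700 and 1314 CPM to 39.6 and 44.7 CPM. Ly86, the partner of the receptor RP105, had 1 UMI in the CD41 gate and 225 in the unsorted pools, 76.0-fold lower (95% counting interval 13.5 to 3014), and the complement gene C3 had 1 and 213 UMIs.

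The remaining largest falls were not lineage markers by their names. Cox7b, a subunit of cytochrome c oxidase, had 0 UMIs in the CD41 gate and was at 65.2, 53.4, 397 and 305 CPM in the unsorted pools, at least 45.5-fold lower when the CD41 gate sum is set to 3 UMIs. The mitochondrial ribosomal protein gene Mrpl42 had 1 UMI in the CD41 gate and was at 26.7, 28.4, 193 and 163 CPM. Both genes differed between the unsorted plates, and in the 12 unsorted pools of other batches they ranged from 17.1 to 526 and from 1.97 to 203 CPM. Mrpl42 was not called without either CD41 gate pool (edgeR adjusted p = 0.059 and 0.083). Snd1 and Mrfap1 were steadier in the unsorted pools, at 172 to 267 and 132 to 237 CPM, and had 4 and 3 UMIs in the CD41 gate. The amino acid transporter gene Slc38a5 had 2 UMIs in the CD41 gate and 457 in the unsorted pools.

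The stem and multipotent progenitor list had 6 of 10 tested genes called higher and 2 lower, with a median of 2.14, and some of its members, Meis1, Vwf and Esam among them, are also in the lists above or among the largest rises. Pdzk1ip1, known as a marker of blood stem cells, was at 328 and 307 CPM against 31.5 to 53.5 CPM (log2 fold change 2.97 ± 0.22, edgeR adjusted p = 7.77e-07). Ifitm3 rose by 1.32 ± 0.20. Mllt3 and Sox4 were lower, at -1.63 ± 0.43 and -1.16 ± 0.30; without the second CD41 gate pool neither was called (edgeR adjusted p = 0.11 and 0.081), and without the first Sox4 was not (0.057). Hlf had 17 UMIs in the CD41 gate and 16 in the unsorted pools, and Procr 0 and 2, out of 730318 and 2162776 UMIs of the groups. Per UMI of the group, Hlf was thus higher in the CD41 gate. Of the genes linked with Flt3 and lymphoid priming 3 of 6 tested were called lower and 0 higher; Flt3 itself, at -1.11 ± 0.63, was not called (edgeR adjusted p = 0.173).

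A short list led by Apoe was chosen from earlier results of these data and is given as values only. The other lists were also chosen with earlier results of these data known, so their counts of calls are descriptions. Apoe was at 1217 and 1437 CPM against 297 to 368 CPM, a log2 difference of 2.01 ± 0.13, and F2r and Gata2 of the same list were higher too. Ptpn14 and Slc22a3 had 2 and 5 UMIs in the CD41 gate against 45 and 93.

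The cell cycle lists differed from each other. Of 23 tested DNA replication genes 3 were called higher and 12 lower (median -0.39), and of 23 tested mitosis genes 5 were called higher and 6 lower (median 0.07). With cells thinned to 500 UMIs, 38.4% of CD41 gate cells and 51.7% of unsorted cells held 3 or more UMIs of the replication list. The pools did not overlap (exact permutation p = 0.133). Against unsorted cells gated on surface CD34 and FcgR, 0 of 9 tested replication genes were called. Rrm1 and Rrm2, the subunits of ribonucleotide reductase, had log2 fold changes of -2.82 ± 0.47 and -2.25 ± 0.25, and Mki67 and Top2a of -2.23 ± 0.34 and -1.78 ± 0.24. Pcna and Ube2c rose by 0.96 ± 0.15 and 0.97 ± 0.17, and Pcna was not called with cells thinned to 500 UMIs (edgeR adjusted p = 0.26). Without the first CD41 gate pool 1 mitosis gene was called higher and 3 lower, and without the second 5 were called higher and 3 lower.

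Markers of other cell types that a progenitor gate could hold were read in the same pools. Of the T cell, stromal and macrophage markers, Cd3e and Col1a1 had 0 UMIs in both groups. C1qa had 3 UMIs in each, out of 730318 in the CD41 gate and 2162776 in the unsorted pools. The basophil and mast cell genes Mcpt8 and Cpa3 had 1 and 0 UMIs in the CD41 gate against 96 and 25 in the unsorted pools, and Prss34 was at 78.5 and 316 CPM in 1 unsorted pool of each plate and was at most 5.66 CPM in the others and in the CD41 gate. The summed level of the basophil and mast cell list, which includes Gata2, was 661 and 664 CPM in the CD41 gate and 299 to 824 CPM in the unsorted pools. That of the stromal, endothelial and macrophage list was 39.4 and 66.7 against 16.6 to 31.9 CPM, and none of its 15 genes had enough UMIs to test. Without the count filter 2 of 10 genes of that list were called higher and 0 lower, against 1403 of all 13021 genes called higher. Of the MHC class II and dendritic list 2 of 7 tested genes were called lower and 1 higher: Cd74 and H2-Aa were lower, with log2 fold changes of -2.85 ± 0.63 and -2.45 ± 0.74, and H2-DMa rose by 1.27 ± 0.21. H2-DMa was not called with thinned cells (0.85, edgeR adjusted p = 0.053) or against unsorted cells gated on surface CD34 and FcgR (0.21, edgeR adjusted p = 0.71). Without the first CD41 gate pool H2-Aa was not called (edgeR adjusted p = 0.17), and neither Cd74 nor H2-Aa was among cells with at least 1000 UMIs (0.17 and 0.25). Of 3 tested lymphoid and NK genes Cd79b and Ptprcap were called higher and Ccl5 lower; without the second CD41 gate pool none of the 3 was called (edgeR adjusted p = 0.060, 0.16 and 0.20). The eosinophil granule gene Prg2 had 0 UMIs in the CD41 gate and was at 96.9, 154, 2.10 and 12.7 CPM in the unsorted pools, at least 17.7-fold lower when the CD41 gate sum is set to 3 UMIs, and its call was lost without the first or without the second CD41 gate pool (edgeR adjusted p = 0.14 in both fits) and with all 16 unsorted pools (0.13).

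Stress and interferon lists were read for the handling of the cells. Of 6 tested immediate early genes 3 were called higher and 1 lower: Btg2, Ier3 and Klf6 rose by 2.88 ± 0.54, 2.31 ± 0.45 and 1.90 ± 0.49 on the log2 scale, and Myc was lower at -0.72 ± 0.20, a call lost without the second CD41 gate pool (edgeR adjusted p = 0.22). The call of Klf6 was lost without the first CD41 gate pool (edgeR adjusted p = 0.17). Of 10 tested interferon-stimulated genes 0 were called higher and 2 lower, among them Isg15 at -1.77 ± 0.50, which was not called without the first or without the second CD41 gate pool (edgeR adjusted p = 0.072 and 0.11).

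To see how the pool differences were spread over cells, each cell was thinned to 500 UMIs and counted as positive for a list when it kept at least 3 UMIs of it. For the 52 genes of the 3 platelet lists, 267 of 336 CD41 gate cells were positive, 79.5% (95% exact binomial interval 74.7 to 83.7; pools 78.4% and 80.5%). Of the unsorted cells 39 of 700 were, 5.57% (3.99 to 7.54; pools 3.78% to 7.14%). The pools did not overlap, and the exact two-sided permutation test over pools gave p = 0.133 (0.217 after Benjamini-Hochberg adjustment over 13 lists), the smallest value that 15 splits of 2 against 4 pools allow. The erythroid list was positive in 4.46% of CD41 gate cells and 44.9% of unsorted cells, and the primary granule list, which includes the widely expressed gene Calr, in 14.6% and 62.3%. The pools of the groups did not overlap in either, and both had the same exact permutation p of 0.133. Without thinning the platelet share was 97.3% against 65.4%, which depends on depth. Intervals cover counting error only.

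**Figure D4:**
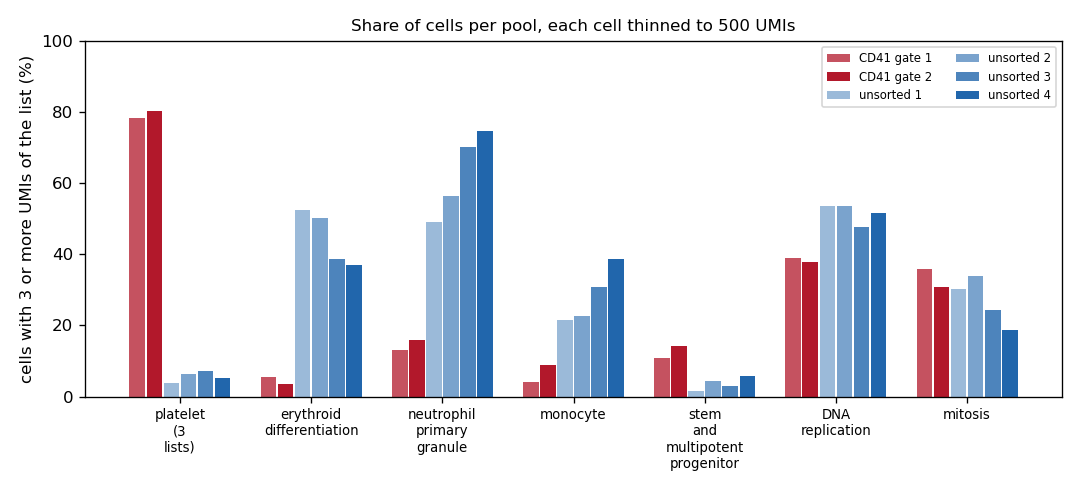
Percentage of cells per pool with at least 3 UMIs of a gene list after thinning each cell to 500 UMIs; red bars are the 2 CD41 gate pools and blue bars the 4 unsorted pools. The platelet share is 78.4% and 80.5% in the CD41 gate and at most 7.14% in the unsorted pools, and the erythroid and primary granule shares are the reverse.

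Pf4 alone had a UMI in 64.0% of thinned CD41 gate cells (58.6 to 69.1) and in 1.57% of unsorted cells. Among unsorted cells positive for the primary granule list, 1.15% had a Pf4 UMI (0.373 to 2.66; median depth 2337 UMIs before thinning against 1843.5 in the CD41 gate). These cells were a mixture: 27 were also positive for the platelet lists, and 92 for the erythroid list without the platelet lists. The cells positive for the primary granule list are 436 of the same 700 cells and hold 5 of the 11 with a Pf4 UMI, so they are no separate background. They also give none for the CD41 plate, whose wells without a cell held Pf4 UMIs. The median CD41 gate cell held 6 UMIs of the platelet lists per 500 in each pool, and the median unsorted cell 0 or 1. At 0 platelet UMIs were 4.46% of the CD41 gate cells and 49.7% of the unsorted cells.

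**Figure D5:**
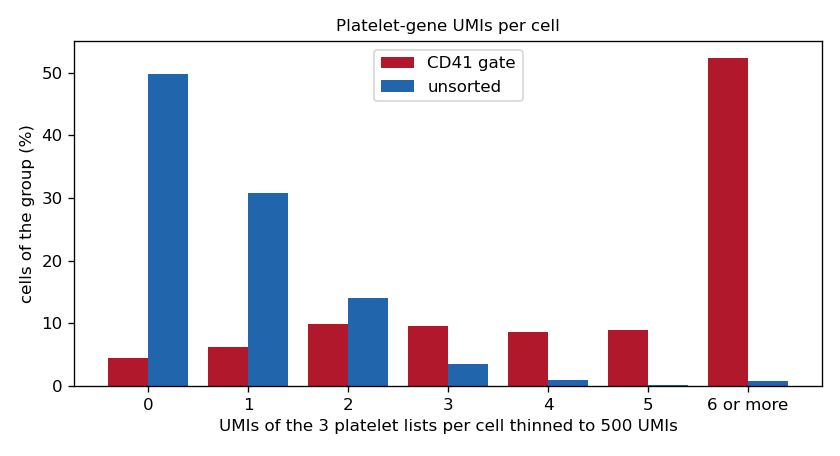
Percentage of cells of each group by the number of UMIs of the 3 platelet lists per cell thinned to 500 UMIs. Of the CD41 gate cells 52.4% hold 6 or more, and 0.857% of unsorted cells do.

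The cells of the CD41 gate differed in the lists they were positive for at the thinned depth. Many lay close to the cut, with 33 cells holding 2 platelet UMIs and 32 holding 3. At full depth 97.3% of the CD41 gate cells held 3 or more, so the classes below are of thinned counts and not kinds of cell. Of the 336 CD41 gate cells, 232 were positive for the platelet lists alone, 10 also for the erythroid list and 25 also for the primary granule list, 24 for the primary granule list alone, 5 for the erythroid list alone and 40 for none of these. The 69 cells under 3 platelet UMIs after thinning had Mpo in 39.1% (27.6 to 51.6) and Prtn3 in 36.2% (25.0 to 48.7) of cells, against 9.36% each in the 267 platelet-positive cells, at median depths of 1702 and 1898 UMIs. Apoe had a UMI in 56.5% and 46.1% of these cells, and Gata1 in 7.25% and 7.87%. Irf8 had a UMI in 3.27% of CD41 gate cells and 25.1% of unsorted cells at full depth. After thinning it had one in 0 of 336 and in 9.71%, and the 0 allows up to 0.893% of cells with a UMI at that thinned depth only. Among the 700 unsorted cells, 11 were positive for the platelet lists alone, 2 also for the erythroid list and 27 also for the primary granule list, and 1 of these cells is counted under both.

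The CD41 gate also selected CD34+ FcgR(low) cells, and the index-sort intensities that the authors' table gives for the unsorted cells allowed a closer, though not identical, comparison. Unsorted cells with CD34 above and FcgR at or below the median of their pool numbered 48, with 7, 5, 15 and 21 in the 4 pools, and 946 genes could be tested against them. Of these 8.14% were called higher and 11.2% lower in the CD41 gate. Pf4 kept a log2 fold change of 7.30 ± 0.44 (edgeR adjusted p = 6.50e-08), Vwf one of 4.28 ± 0.49 and Gp9 one of 4.45 ± 0.62, whereas F2r was not called (0.96 ± 0.50, edgeR adjusted p = 0.19). Of the 3 platelet lists 4 genes each could be tested here, of 15, 15 and 22 listed; such genes could pass the count filter through the CD41 gate pools in which they are high, so no count of calls is given for these lists. Gata2 rose by 1.30 ± 0.35 and Nfe2 by 1.07 ± 0.33, whereas Runx1 (0.16 ± 0.33), Etv6 (0.32 ± 0.36), Apoe (0.39 ± 0.45) and Ifitm3 (-0.17 ± 0.36) were not called. Of the primary granule genes, Elane was lower at -2.82 ± 0.56 and Mpo at -2.32 ± 0.58. Of the 4 erythroid genes that could be tested, 1 was called lower, Car1 at -4.25 ± 1.03 (edgeR adjusted p = 0.0101). Car2 was not called (-1.89, edgeR adjusted p = 0.072). The erythroid share of these unsorted cells was 12.5% (95% Clopper-Pearson interval 4.73 to 25.2) against 44.9% of all unsorted cells. The pools of these cells ranged from 0 to 42.9% and overlapped the CD41 gate pools, and the erythroid difference averaged over pools was -10.3 percentage points (exact two-sided permutation p = 0.53) against -40.1 with all unsorted cells. The stem and multipotent progenitor share of these cells was 14.6% (6.07 to 27.8), against 12.5% in the CD41 gate. The platelet share was 12.5% of the 48 cells (4.73 to 25.2), with pools from 0 to 28.6%. The difference from the CD41 gate, averaged over pools, was 67.1 percentage points against 73.8 with all unsorted cells. The primary granule share of the 48 cells was 77.1% (62.7 to 88.0), against 62.3% of all unsorted cells and 14.6% in the CD41 gate.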

How the data were processed

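The authors deposited 1 table of UMI counts per gene row and well, and a design table giving each well's pool, plate, sorting description, cell number and, for unsorted cells, CD34 and FcgR intensities as other values with no unit named. Reads were demultiplexed with bcl2fastq 2.15.0.4 and the build was mm9, per the submitters' processing notes; no source used here names the aligner or the annotation. The counts held 27297 gene rows, of which 11135 had no UMI and 2109 joined several symbols, and 0 were ERCC spike-in rows. Wells with 1 cell and at least 500 UMIs were summed per amplification pool, 2 of the CD41 gate and 4 unsorted, with 355389 to 594833 UMIs each.

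Counts were fitted with edgeR 4.0.16 (R 4.3.3; filterByExpr, TMM, quasi-likelihood F test, Benjamini-Hochberg over all 6905 genes tested, adjusted p under 0.05, group only). SE is the fold change over the square root of F. Tested on simulated data, the fit made no call in the wrong direction, and the share of false calls was above the nominal one. Alternatives were DESeq2 1.42.0, RLE factors, no filter, other UMI minimums, thinned cells, other control cells, sums per plate and pools left out; leaving out a plate and a GC and length offset (GENCODE transcripts) were added after seeing the data. Doublets were not called, since each well was sorted as 1 cell. Shares of cells used Python 3.11.15 with exact permutation over pools and exact Clopper-Pearson intervals (95%).

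Named genes are the 12 largest rises and 12 largest falls among called genes of 1 symbol whose pools did not overlap and whose higher group averaged 100 CPM or more, then list members that were called and up to 4 others per list, and all sort markers. Of list members, Bin2, Hba-a1, Hbb-b2, Ahsp, Ighm and Igk had no matching row, and some members, such as Sptb, Prss57, Spi1 and Ifi27, were matched by older symbols. A few list members are counted in their lists and not reported here by name. The members and lists were chosen with earlier results of these data known.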

Additional observations from a re-analysis of the deposited data

Results flagged for a closer look

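In 3 of 36 gene and list values examined over the 4 unsorted pools, a single pool lay apart from the other 3 by Dixon's criterion. The criterion's rate of about 1 in 20 by chance is for continuous values and does not apply to counts of a few UMIs. Pde10a was at 2.10 CPM in the third unsorted pool and at 0 in the others, and Gnaz at 2.12 CPM in the fourth and at 0 in the others; each value is a single UMI. Esam was at 4.24 CPM in the fourth unsorted pool and at 1.67 to 2.10 CPM in the others, all far below the CD41 gate at 110 and 119 CPM. The groups of 2 CD41 gate pools were too small to examine.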

How the results depend on the processing

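No paired analysis was possible because the pools carry no replicate number in the labels. The counts of 1272 genes higher and 1554 lower moved beyond 1.5 times with cells thinned to 500 UMIs (283 and 400 of 2544 genes tested) and with surface-gated unsorted cells (77 and 106 of 946), where fewer genes could be tested. Both counts also fell beyond 1.5 times without the first and without the second CD41 gate pool, where more genes were tested. Leaving out 1 pool at a time gave 671 to 1377 genes higher and 772 to 1640 lower, with the lowest counts without the second and then the first CD41 gate pool (735 and 950), and leaving out an unsorted plate gave 1144 and 1615 higher and 1327 and 1831 lower. In DESeq2, 940 were higher and 1191 lower, and 2124 of the 2826 calls were called in the same direction. With UMIs summed per plate, where the lone CD41 gate plate is assumed to vary like the 2 unsorted plates, 865 were higher and 1270 lower, and 1943 of the 2826 were called in the same direction. No called gene was called in the other direction under any of these alternatives, although 16 genes changed sign without a call with thinned cells, 27 with surface-gated cells and 12 with the GC and length offset. Genes called higher had a median GC content of 53.1% and those called lower 47.6%, against 50.2% for the rest, and with that offset 1334 were higher and 1274 lower. Of the genes named, Ifitm3 changed sign with surface-gated cells (-0.17) and Ptprcap with thinned (-0.033) and surface-gated cells (-0.31), neither called there. The platelet share difference ranged from 32.0 to 74.9 percentage points over all alternatives, the erythroid from -46.9 to -10.3 and the primary granule from -57.9 to -26.5. Leaving out 1 pool, the exact permutation test over pools cannot give a p under 0.20, so those values say nothing about stability. Genes with few UMIs in both groups could not be compared at this depth.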

Other observations

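Some groups of genes chosen by symbol after their values were seen were also read. The groups share members with the fixed lists, such as Tuba8, Gng11 and H2-DMa, which are counted again here. The counts of these groups stand against 18.4% called higher and 22.5% called lower of all genes tested. Of 18 tested histone genes of the Hist clusters 11 were called lower in the CD41 gate and 2 higher, with a median log2 fold change of -2.24; Hist1h1b was at 67.9 and 29.8 CPM against 407 to 1285 CPM. Of 64 cytosolic ribosomal protein genes 27 were called higher and 6 lower, with a median of 0.43. All 5 tested alpha tubulin genes were called higher, with a median of 1.97. Of 8 genes with symbols starting H2-D, H2-K, H2-Q or H2-T, 6 were called higher and 0 lower. They include H2-DMa, the MHC class II gene called higher above, so they are not all class I genes. H2-K1 was at 1840 and 2001 CPM against 508 to 1079 CPM. Against the surface-gated unsorted cells its log2 difference was 0.47 and was not called (edgeR adjusted p = 0.27). Of 46 translation initiation factors 5 were called higher and 20 lower, with a median of -0.58, and of 14 heat shock proteins 2 were higher and 8 lower, with a median of -0.72. Of 63 mitochondrial ribosomal protein genes 5 were higher and 8 lower, both below the shares of all genes, with a median of -0.03. Of 14 mitochondrial ATP synthase genes 4 were higher and 0 lower, and of 15 heterotrimeric G protein genes 4 were higher and 0 lower. The metallothionein gene Mt2 was at 42.5 and 5.96 CPM in the CD41 gate and at 594 to 862 CPM in the unsorted pools.

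Several abundant genes that belong to none of the lists were high in both CD41 gate pools. Nrgn, which encodes the calmodulin-binding protein neurogranin, was at 2259 and 2323 CPM against 83.5 to 129 CPM, a log2 fold change of 4.34 ± 0.16 (edgeR adjusted p = 3.42e-09), and against the surface-gated unsorted cells the log2 fold change was 3.23 ± 0.41. Rap1b, a small GTPase of integrin activation, rose by 3.53 ± 0.16 and the adhesion receptor gene Gpr56 by 2.63 ± 0.14 on the log2 scale. The row of the serine protease inhibitor genes Serpina3f and Serpina3g, near-identical copies whose UMIs cannot be told apart, was at 1478 and 1524 CPM against 55.1 to 143 CPM.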
